A study of Mus musculus with 9 samples.

Results

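The vomeronasal receptor block is a stretch of 1 Mb on mouse chromosome 13, from 22.2 to 23.2 Mb (mm9), that carries pheromone receptor genes and lies between clusters of histone genes. Its members were chosen by position alone: they are the fragments left by the restriction enzyme StyI whose midpoint falls in the stretch, 1232 of the 3053721 fragments of the genome. The 1 Mb to either side, with 1202 fragments on the left (21.2 to 22.2 Mb) and 1302 on the right (23.2 to 24.2 Mb), served as flanks. All libraries came from E14Tg2a, a single line of mouse embryonic stem cells with a 129P2 background that was kept in LIF, with no treatment or genetic change named. There were 3 HRS libraries, 3 Loop libraries and 3 Input libraries of unfractionated genomic DNA, the last titled D0, D12 and D21 without explanation and called Input replicates 1, 2 and 3 here. High-salt recovered sequences (HRS) are the DNA that stays with the insoluble material after nuclei have been extracted at high salt and cut with StyI, and Loop is the DNA released in the same step.

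The receptor genes are of the Vmn1r family. Vmn1r proteins are G protein-coupled receptors that detect pheromones in sensory neurons of the vomeronasal organ, where each neuron uses very few of the many receptor genes. The family grew by repeated tandem duplication, so neighbouring members are often similar, and it holds many pseudogenes. The histone genes on either side encode the histones that dividing cells make while they copy their DNA. The libraries hold DNA only, so neither the expression of any gene nor the labelled cell type could be checked in them.

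In the RefSeq annotation of a later build (GRCm38.p6) the receptor genes form 1 neighbourhood between the histone genes H2bc11 and H4c8. Its first and last members are the pseudogenes Vmn1r-ps92 and Vmn1r-ps135. From one to the other 87 genes are listed, of which 75 carry a Vmn1r name: 35 coding receptors, from Vmn1r188 to Vmn1r223, 39 pseudogenes and 1 of another kind. None of the remaining 12 is a histone gene (0) or a tRNA gene (0). Many tRNA genes stand just outside, 45 of them between the last Vmn1r gene and H4c8 and 1 between H2bc11 and the first. Only names and order were taken from that build, since its coordinates cannot be carried over to mm9, and no gene is therefore tied to a single fragment.

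StyI cuts at CCNNGG where each N is A or T, a set that reads the same on both strands. In this assay an adaptor on the cut end directs the enzyme MmeI to cut a short distance inside the fragment, so a fragment is recognised by the few bases next to its StyI sites. The sequences of the neighbourhood's receptor genes show how alike such ends can be. Whether each of these genes lies inside the block as set in mm9 was not checked, since the builds differ. Of the 35 coding receptors 32 have a RefSeq promoter window (250 bases before to 50 after the gene start, GRCm38.p6). A StyI site stood in 13 of these windows (40.6%), against 34.5% of 32851 windows of all genes. The windows of Vmn1r217 (chr13:23114681-23114980, minus strand) and Vmn1r220 (chr13:23184475-23184774, minus strand) are shown because they share a site and differ at another. StyI sites are in capitals.
Vmn1r217: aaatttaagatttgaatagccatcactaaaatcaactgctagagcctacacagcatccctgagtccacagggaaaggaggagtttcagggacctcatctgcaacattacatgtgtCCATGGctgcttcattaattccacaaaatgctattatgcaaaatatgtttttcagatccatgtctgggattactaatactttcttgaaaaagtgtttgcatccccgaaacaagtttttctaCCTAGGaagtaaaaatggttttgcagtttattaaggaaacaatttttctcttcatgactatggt
Vmn1r220: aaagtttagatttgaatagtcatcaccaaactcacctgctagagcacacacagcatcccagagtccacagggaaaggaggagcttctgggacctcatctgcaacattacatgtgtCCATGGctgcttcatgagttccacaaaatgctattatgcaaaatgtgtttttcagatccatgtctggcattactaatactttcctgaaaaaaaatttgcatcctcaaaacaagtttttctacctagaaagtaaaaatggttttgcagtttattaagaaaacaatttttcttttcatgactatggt
Compared letter by letter with no alignment, these windows were identical at 92% of positions, with 24 differences. The median over the 496 pairs of receptor windows was 29.3%, a value that any shift between related windows would lower. The site at position 237 of the Vmn1r217 window, counted from 1 at its 5′ end, is not matched in Vmn1r220, where G242A changes its last base.

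Some receptors carry the same letters beside their site. A stretch of 20 letters that ends with the site, the upper tag length named in the labels' protocols, is shown for these. The first stands before Vmn1r217 (chr13:23114860-23114879, minus strand), Vmn1r219 (chr13:23162500-23162519, plus strand) and Vmn1r220 (chr13:23184654-23184673, minus strand). The second stands before Vmn1r189 (chr13:22102794-22102813, minus strand) and Vmn1r221 (chr13:23217225-23217244, plus strand). Capitals again mark the StyI site.
Vmn1r217, Vmn1r219 and Vmn1r220: aacattacatgtgtCCATGG
Vmn1r189 and Vmn1r221: aatattacttgtgtCCATGG
Counting stretches of 20 letters that begin or end with a StyI site, the receptor windows held 28. Of these, 6 (21.4%) were found at 2 or more places among all promoter windows, against 6.13% of 24639 stretches over all genes. The 2 sequences above, counted once per receptor, account for all of the 6 except a stretch that begins with the site of Vmn1r213. How tags that match several places were counted is not given in the sources used here.

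Many fragments of the block had no count in any library. Of the 1232 fragments 522 (42.4%) were uncounted in all 9 libraries, 710 had a count in at least 1 library and 573 had a count in every library. Uncounted fragments made up 20.9% of the left flank, 18.3% of the right flank, 16.2% of the rest of chromosome 13 and 16.4% of the genome. By length, 36.5% of the block lay in uncounted fragments, against 11.6% of both flanks together. Among 2565 windows of 1 Mb with at least 500 fragments, 95.9% had a smaller uncounted share than the block, and the median window had 13.5%. Uncounted fragments in the block were not mostly tiny: their median length was 434.5 bp, against 277 bp for uncounted fragments of the genome.

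The gaps were unevenly placed. From 22985520 to 23076719 a run of 122 adjoining fragments, 91.2 kb in all, had no count in any library, and it was the longest such run on chromosome 13. The window of 100 kb from 23.0 Mb, which holds most of that run, had 106 of its 125 fragments uncounted. The next longest run of the block, 19 fragments from 22202697 to 22215269, lay at its left end. At the other extreme 31 of 128 fragments were uncounted in the window from 22.4 Mb and 27 of 111 in the window from 22.5 Mb. Results on the block therefore describe the 710 fragments that could be counted, and whether the uncounted ones were retained or released was not measurable.

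Sequencing depth differed between the groups, with 39.1 to 52.5 M counts per HRS library, 58.7 to 62.9 M per Loop library and 55.2 to 62.2 M per Input library. HRS replicate 3 was the shallowest (39.1 M). Levels are therefore given as CPM, counts scaled to the total of their library. Chromosome 13 as a whole took 4.16 to 4.39% of counts in HRS, 4.27 to 4.44% in Loop and 4.41 to 4.48% in Input. The labels do not tell whether the replicates were grown separately, and p-values cover the spread of these libraries alone, which may be technical.

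Summed over fragments of all lengths, the block had a lower level in HRS than in Loop, at 0.818 times the Loop mean, while the flanks were higher in HRS, at 2.85 times on the left and 2.32 times on the right. In the block this order held for fragments of up to 200 bp and the means turned for longer ones. The log2 ratios of HRS over Loop were -1.11 up to 200 bp, 0.12 between 200 and 1000 bp and 0.53 over 1000 bp. Between 200 and 1000 bp the libraries overlapped, with 89.2 to 100 CPM in HRS and 84.2 to 92.2 CPM in Loop. The genome's ratios turned likewise, at -0.78, 0.44 and 0.81. In HRS replicates 1, 2 and 3 the block had 185, 191 and 179 CPM, against 223, 232 and 224 CPM in the Loop replicates and 207, 210 and 218 CPM in the Input replicates. Every HRS library lay below every Loop and every Input library, and the Loop and Input ranges did not overlap either. On this scale the block's log2 ratio of HRS over Input was -0.19, where the median of 2565 windows of 1 Mb had -0.10. Of these windows 33.9% had a lower ratio than the block. For Loop over Input the block had 0.096 and the median window -0.035, with 10.4% of windows above the block. The mean was 185 ± 6.17 CPM over the HRS libraries, 226 ± 4.80 CPM over the Loop libraries and 212 ± 5.51 CPM over the Input libraries (SD, n = 3 each). In the left flank the HRS libraries had 938, 871 and 978 CPM, against 335, 330 and 312 CPM in Loop and 372, 342 and 345 CPM in Input. In the right flank they had 882, 829 and 941 CPM, against 388, 379 and 377 CPM in Loop and 415, 398 and 403 CPM in Input. The HRS libraries stood far above the other 6 in both flanks.

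**Figure D1:**
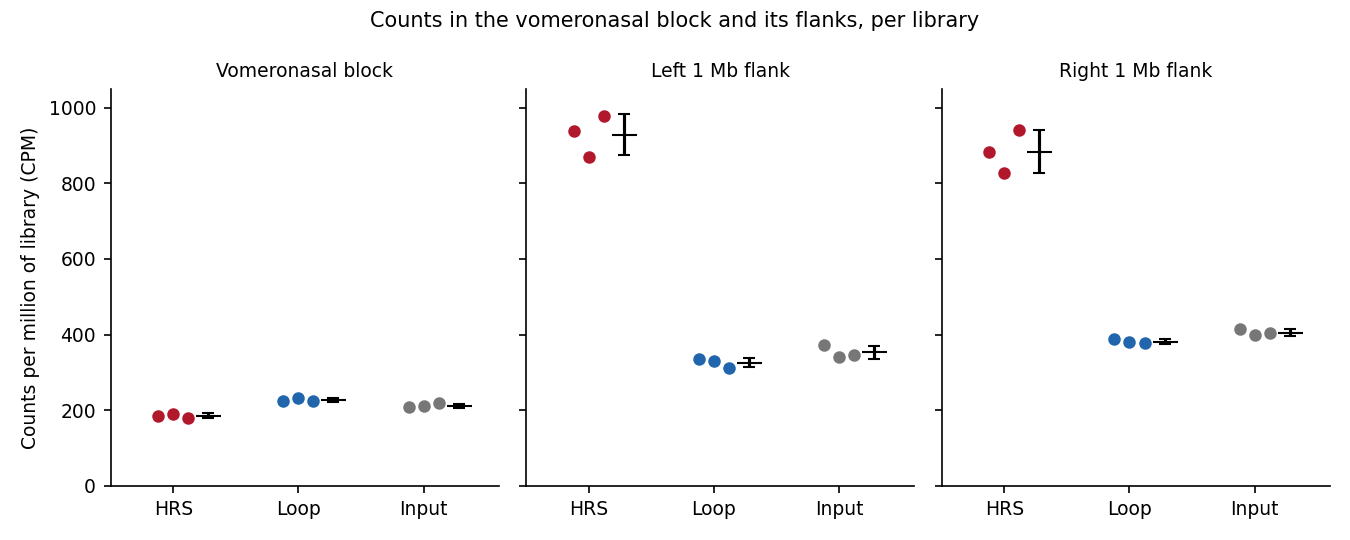
CPM in the vomeronasal block and in its left and right 1 Mb flanks, with 1 point per library for HRS, Loop and Input and the mean ± SD beside them (n = 3 each). In the block the HRS points (179 to 191 CPM) lie just below the Loop points (223 to 232 CPM), whereas in the flanks they lie between 829 and 978 CPM, above every Loop and Input point.

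The block was lower in HRS than in Loop also as a single feature of a test over the genome. In a fit of 2599 windows of 1 Mb the block had a log2 ratio of HRS over Loop of -0.27 ± 0.05 (SE), with an adjusted p of 0.00285 by edgeR's quasi-likelihood test with Benjamini-Hochberg adjustment. Windows lower in HRS were common, at 21.7% of all windows, and the block's ratio was not extreme, since 87.8% of the 2565 ranked windows had a higher one. The flanks were extreme. Their log2 ratios were 1.54 ± 0.08 on the left (edgeR adjusted p = 2.86e-05) and 1.24 ± 0.08 on the right (edgeR adjusted p = 0.000129), against 17.6% of windows higher in HRS. No ranked window (0) had a higher HRS to Loop ratio than the left flank, and 1 had a higher ratio than the right flank.

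Against Input the block was not called. Its log2 ratio of HRS over Input was -0.12 ± 0.06 (SE, edgeR adjusted p = 0.156), in a fit that called 22% of windows higher in HRS and 22.4% lower. The log2 ratios of the flanks in the same fit were 1.48 ± 0.09 on the left and 1.21 ± 0.09 on the right, both past the threshold. In the fit of Loop and unfractionated Input, 0.077% of windows were called higher in Loop and 0.192% lower. The block's log2 ratio of Loop over Input was 0.13 ± 0.04 there (SE, edgeR adjusted p = 0.0916). That value passed the threshold without Input replicate 1 (edgeR adjusted p = 0.0404) and in DESeq2 (adjusted p = 0.00924). Calls were also far more frequent over the genome in these settings, with 357 windows higher in Loop and 539 lower without Input replicate 1, and 247 higher and 250 lower in DESeq2, against 2 and 5 with all libraries in edgeR.

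The contrast between block and flanks was also taken within each library, which needs no scaling between libraries. The log2 ratio of counts in the block to counts in both flanks was -3.29, -3.15 and -3.43 in the HRS replicates, against -1.69, -1.61 and -1.62 in the Loop replicates and -1.92, -1.82 and -1.78 in the Input replicates. The 3 groups did not overlap. The mean ratio was -3.29 ± 0.14 for HRS libraries, -1.64 ± 0.04 for Loop libraries and -1.84 ± 0.07 for Input libraries (SD, n = 3 each). HRS differed from Loop by -1.65 and from Input by -1.45 on the log2 scale, and Loop differed from Input by 0.20. Each comparison had a two-sided p of 0.1 in an exact permutation test, the smallest that groups of 3 allow. With HRS and Loop libraries of the same number paired, the exact p was 0.25, again the smallest possible.

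Since the block and its flanks differ in how many fragments were counted, levels were also set per counted fragment. Per 1000 counted fragments the block had 261 ± 8.70 CPM in HRS, against 318 ± 6.76 CPM in Loop and 298 ± 7.76 CPM in Input (SD, n = 3 each). Both flanks together had means of 900 CPM in HRS, against 351 CPM in Loop and 376 CPM in Input. The genome average on that scale is 392 in every library. The block thus lay below its flanks in every group, by less in Loop and Input than in HRS.

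Within the block the ratio of HRS to Loop covered a smaller range than in either flank, while the level ran from a window mean of 4.90 to one of 29.6 CPM in HRS. In HRS against Loop, 7 of its 10 windows of 100 kb were lower in HRS with no overlap between libraries and 0 were higher, where 35.5% and 22.1% of 25498 windows of the genome were. The log2 ratios of mean CPM ran from -0.51 to 0.01, with a median of -0.29. The lowest was the window from 22.8 Mb, with 9.55, 9.97 and 8.53 CPM in the HRS replicates, against 12.8, 13.3 and 13.9 CPM in the Loop replicates and 9.94, 11.5 and 12.04 CPM in the Input replicates. The highest was the leftmost window, from 22.2 Mb, with 18.7, 18.4 and 19.3 CPM in HRS, against 18.99, 18.9 and 18.3 CPM in Loop and 18.6, 19.2 and 18.7 CPM in Input. All 9 libraries overlapped there, although the window next to it on the left had 76.4 to 77.4 CPM in HRS, against 22.2 to 28.2 CPM in Loop and 28.2 to 31.1 CPM in Input.

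The change at the right end came later. The rightmost window of the block, from 23.1 Mb, had 29.8, 30.9 and 28.1 CPM in HRS, against 38.96, 38.9 and 37.5 CPM in Loop and 34.9, 33.8 and 32.9 CPM in Input. The first window of the right flank, from 23.2 Mb, was still lower in HRS than in Loop, with 29.8 to 33.0 CPM in HRS and 34.4 to 34.6 CPM in Loop. HRS stood above Loop without overlap in the 6 windows from 23.3 to 23.8 Mb. In the first of these the HRS replicates had 44.5, 38.0 and 86.7 CPM, against 12.9, 12.9 and 11.6 CPM in Loop, and HRS replicate 3 stood far above the other HRS libraries. The windows from 23.9 and 24.0 Mb were again lower in HRS without overlap, at log2 ratios of -0.15 and -0.34, and in the last, from 24.1 Mb, the libraries overlapped. The right flank thus had 6 windows higher in HRS and 3 lower, against 9 higher and 0 lower in the left flank. Against Input, 4 of the 10 block windows were lower in HRS without overlap and 0 higher, where 42.7% and 20% of windows were. In Loop against Input 4 were higher and 1 lower, where 15.6% and 28.2% of windows were.

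**Figure D2:**
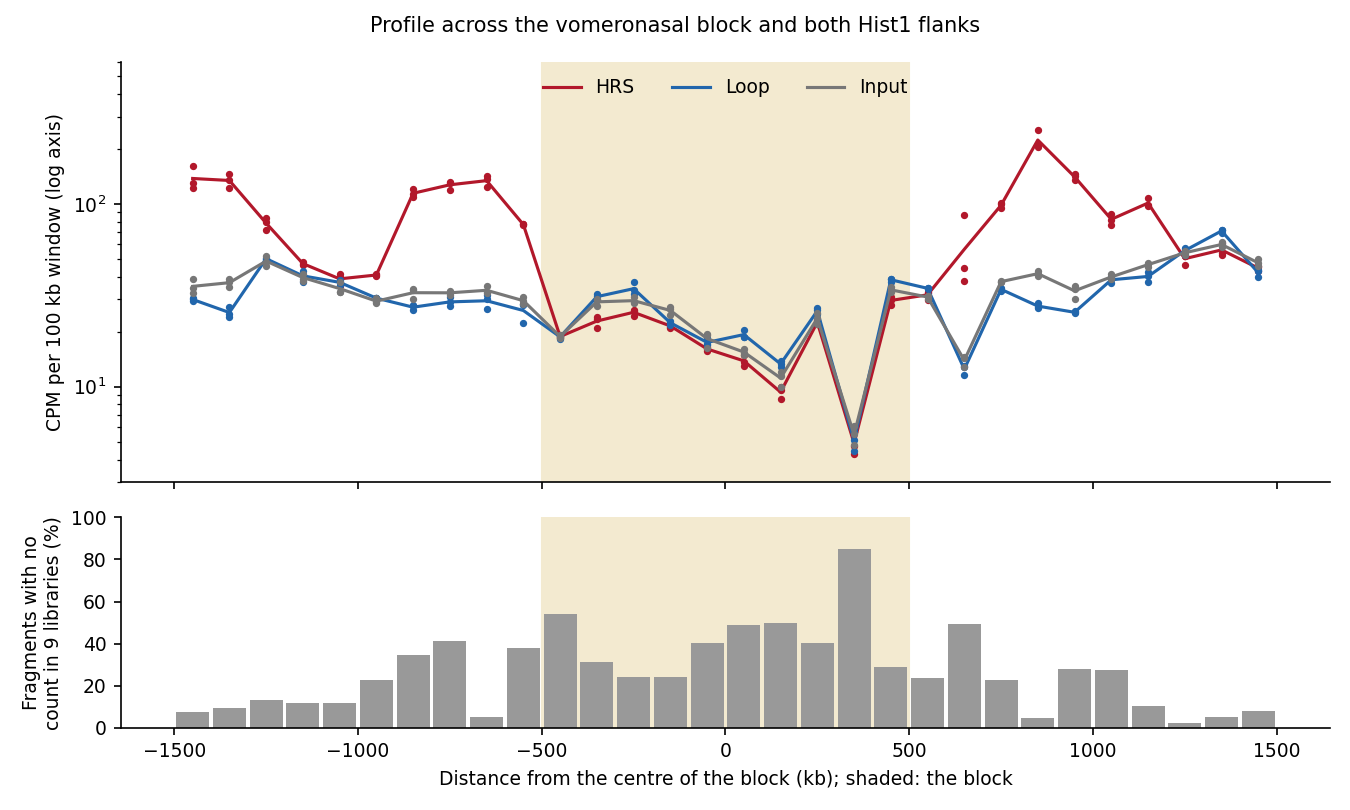
Upper panel, CPM per 100 kb window on a log axis across the block (shaded) and both flanks, with lines for group means and points for single libraries; lower panel, the percent of StyI fragments in each window with no count in any library. HRS runs at or below Loop and Input through the block and rises above them on both sides, and the lowest window, from 23.0 Mb, is the one with 84.8% of its fragments uncounted.

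In bins of 10 kb, few bins of the block were higher in HRS than in Loop. Of its 100 bins 88 passed the filter on low counts and were tested in HRS against Loop, and 1 (1.14%) was called higher in HRS by edgeR, where 17.8% of 245825 bins of the genome were. Lower in HRS were 25 (28.4%), where 20.4% of bins were. The median log2 ratio was -0.20 in the block and 0.01 over all bins tested. The left flank had 68 of 97 tested bins higher and 3 lower, and the right flank 56 of 100 higher and 8 lower. Tested bins were thinner in the block, with a median of 636.5 counts summed over the 6 libraries, against 1649 in the left flank, 1600 in the right flank and 1006 in the genome. The bins higher in HRS numbered 3 without HRS replicate 1 or without Loop replicate 1, and 2 with same-numbered libraries paired as a block. Over the genome 14.3%, 14.8% and 20.4% of bins were higher in these fits.

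The 12 untested bins included 8 in a row, from 22990001 to 23070000, with no count in any HRS, Loop or Input library. The first bin of the block was untested as well, with 4, 2 and 0 counts in HRS and 5, 0 and 0 in Loop. The last bin of the block, from 23190001, had 219, 206 and 113 counts in HRS, against 278, 289 and 268 in Loop and 248, 273 and 203 in Input. It did not pass the test, with a log2 ratio of -0.32 ± 0.15 (SE, edgeR adjusted p = 0.0914).

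The bin called higher was 22630001 to 22640000. It had 57, 57 and 65 counts in HRS, against 30, 24 and 33 in Loop and 23, 27 and 34 in Input. All 3 HRS libraries lay above the other 6, at a log2 ratio of 1.41 ± 0.32 (SE, edgeR adjusted p = 0.00176). Nearly all of these counts came from 1 fragment of 1558 bp (22633322 to 22634880), which had 56, 57 and 65 counts in HRS and 30, 23 and 33 in Loop, and 6 of the bin's 8 fragments were uncounted. The bin with the next highest ratio, from 22860001, held 20, 17 and 10 counts in HRS and 14, 7 and 4 in Loop and did not pass (log2 ratio 1.23 ± 0.51, edgeR adjusted p = 0.0592). The remaining 3 of the 5 highest bins, from 22510001, 22210001 and 22280001, had log2 ratios between 0.52 and 0.70, also without passing.

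Among the 5 lowest bins the ratios ran from -1.66 to -1.09, and 4 passed. The bin from 22830001 had 0.49, 0.69 and 0.36 CPM in HRS, against 1.57, 1.62 and 1.41 CPM in Loop and 0.77, 0.53 and 0.92 CPM in Input, at a log2 ratio of HRS over Loop of -1.60 ± 0.29 (SE, edgeR adjusted p = 0.000218). Here it was Loop that stood apart, while HRS and Input overlapped. The bin from 22870001 had 0.91, 1.22 and 1.204 CPM in HRS, against 2.08, 2.53 and 2.503 CPM in Loop and 0.97, 1.15 and 1.09 CPM in Input, the same pattern. The bins from 22780001 and 23130001 had log2 ratios of -1.66 ± 0.40 and -1.09 ± 0.22 (SE), and the fifth, from 22690001, with 1 to 17 counts per library, did not pass.

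The fractions differ in the lengths of fragments they hold, so the same fits were repeated with fragment length corrected. Fragments of up to 200 bp gave 28.2% of the block's counts in HRS, against 49.7% in Loop and 24.7% in Input. With the correction, 0 of the 88 block bins were higher in HRS, where 14.9% of bins were, and 6 (6.82%) were lower, where 8.43% were. The share of lower bins was thus above the genome's share without the correction and near it with the correction, while the share of higher bins was below it both times. Called or not, 71 of the 88 bins had a negative ratio and 17 a positive one with the correction, against 56 and 32 without it. The corrected median log2 ratio was -0.20 in the block and -0.03 over all bins tested. The bin from 22630001 no longer passed (log2 ratio 0.72, edgeR adjusted p = 0.171), nor did 3 of the 4 low bins, while the bin from 23130001 did (log2 ratio -0.72, edgeR adjusted p = 0.0239). The block as a whole kept its call in the 1 Mb fit (log2 ratio -0.22 ± 0.04, SE, edgeR adjusted p = 0.00439), where 20.7% of windows were lower. In the flanks 72 of 97 and 53 of 100 bins were higher.

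**Figure D3:**
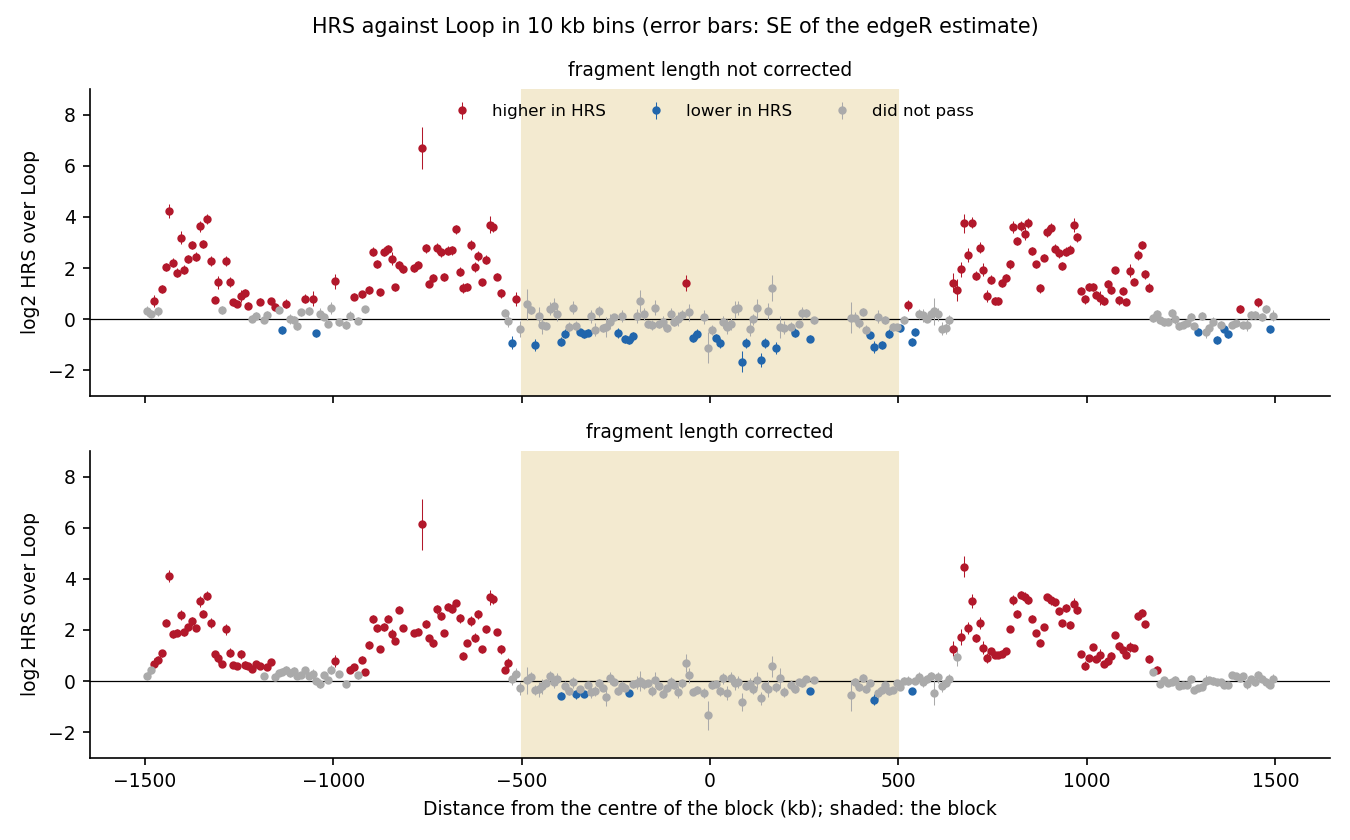
The log2 ratio of HRS over Loop in bins of 10 kb against distance from the centre of the block (shaded), without (upper) and with (lower) correction for fragment length; error bars are the SE, red points are bins called higher in HRS, blue points lower, and grey points did not pass. In the block 1 bin is red and 25 are blue in the upper panel, against 0 and 6 in the lower panel, while both flanks are mostly red.

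In each class of fragment length the block's ratio of HRS to Loop stayed below that of its flanks. Among fragments of up to 200 bp the block had 52.2 ± 1.96 CPM in HRS, against 112 ± 11.6 CPM in Loop and 52.3 ± 4.49 CPM in Input (SD, n = 3 each). Between 200 and 1000 bp it had 94.6 ± 5.63 CPM in HRS, against 87.3 ± 4.27 CPM in Loop and 115 ± 3.15 CPM in Input. Over 1000 bp it had 38.2 ± 2.86 CPM in HRS, against 26.4 ± 8.21 CPM in Loop and 44.6 ± 1.04 CPM in Input. The order of the HRS and Loop means therefore turned with length, although their libraries overlapped between 200 and 1000 bp. From the shortest to the longest class the log2 HRS to Loop ratio was -1.11, 0.12 and 0.53 in the block, 0.62, 1.88 and 2.57 in the left flank, 0.33, 1.55 and 2.29 in the right flank, and -0.78, 0.44 and 0.81 in the genome. In each class the block lay below the genome and the flanks above it.

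Against Input the length of fragments mattered less. The log2 ratio of HRS over Input in the block was -0.28 for fragments between 200 and 1000 bp and -0.22 over 1000 bp, and HRS and Input had nearly the same CPM up to 200 bp. The left flank had 1.59, 1.27 and 1.45 in the 3 classes and the genome 0.19, -0.07 and -0.10. For the length correction, the count expected of a fragment in a library was its count summed over all 9 libraries, shared out among the libraries as all counts of its length class were (20 classes). The expected values thus hold the region's own counts, HRS included, and compare the libraries within a region rather than regions with each other. Observed counts in the block were 0.877 ± 0.030 times those expected in HRS, 1.10 ± 0.032 times in Loop and 1.00 ± 0.027 times in Input (SD, n = 3 each), whereas both flanks had means of 1.72 in HRS, against 0.711 in Loop and 0.710 in Input.

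**Figure D4:**
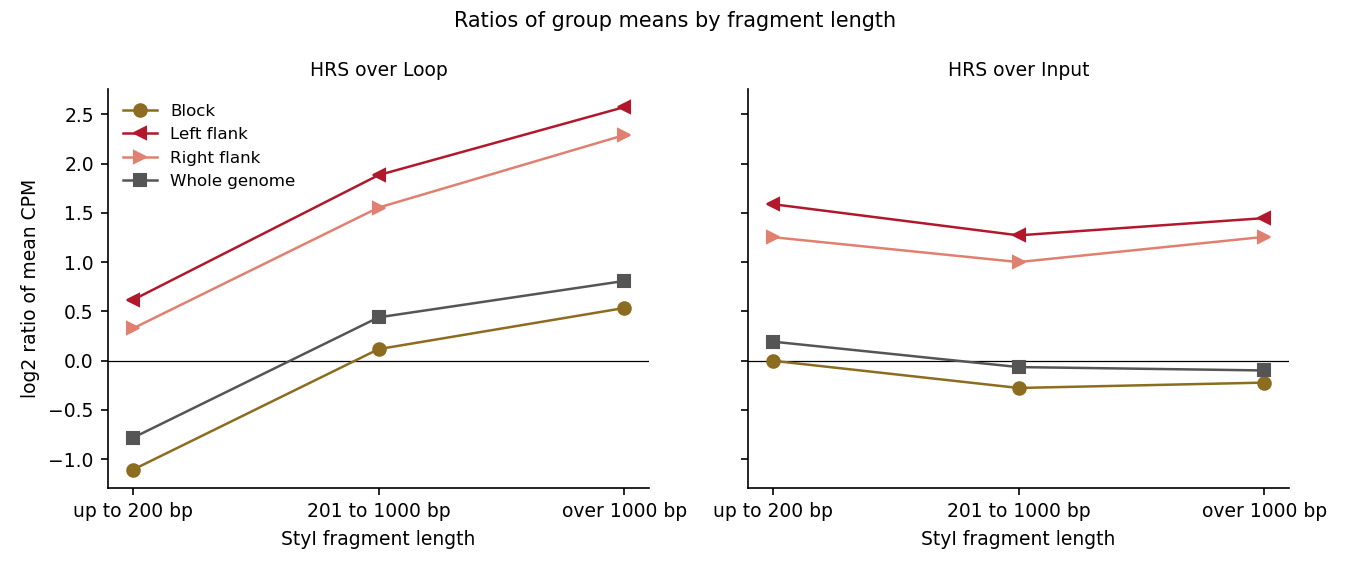
The log2 ratio of mean CPM in HRS over Loop (left) and HRS over Input (right) for StyI fragments of 3 length classes, in the block, its flanks and the whole genome. Each region's HRS to Loop ratio climbs with length, from -1.11 to 0.53 in the block, and in each class the block is the lowest of the 4 and the left flank the highest.

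On either side of the block, the nearest bins called higher in HRS were taken as edges. Without the length correction these were 22180001 to 22190000 on the left and 23220001 to 23230000 on the right, both isolated calls, and the bin from 22630001 was called higher between them. With the correction the left edge was 22160001 to 22170000, the end of a run of 26 adjoining bins that were all higher in HRS. The right edge was 23340001 to 23350000, again an isolated call. Between them lay 1170 kb in which no tested bin was higher in HRS (0). That stretch includes the 12 untested bins of the block, some without a count in any library, so part of it could not be called. Genome-wide, calls higher in HRS took up 14.9% of 245825 bins under this correction. The block's borders, set by position, lay 30 kb inside this second stretch on the left and 140 kb inside it on the right.

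Against Input the bins of the block showed little in either direction. Of 89 tested bins 1 was higher in HRS and 2 were lower by edgeR, where 15.2% and 9.15% of 246935 bins were. In the left flank 74 of 98 and in the right flank 54 of 100 bins were higher, and 0 were lower in either. With length corrected the block again had 1 higher and 2 lower, where 15.5% and 9.72% of bins were. The block counts stayed small under other settings but not equal. Lower were 4 bins without HRS replicate 2, and 1 without HRS replicate 1 or without any of the Input libraries in turn. Higher were 3 without HRS replicate 1. In those fits 3.99 to 8.78% of all bins were lower, and 13.6% were higher without HRS replicate 1. Scaled by library totals, which moves the median of all bins from -0.03 to -0.15 on the log2 scale, 7 of the 89 block bins were lower and the calls over the genome turned to 28932 higher and 43159 lower.

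Loop differed from Input in more bins of the block, with 24 of 89 (27.0%) higher in Loop and 10 (11.2%) lower by edgeR, where 21.5% and 18% of bins were. With length corrected 1 bin was higher and 0 were lower, where 0.267% and 0.0782% of bins were. The lower bins numbered 5 (5.62%) without Input replicate 2 or without Input replicate 3, where 10.6% of all bins were lower in either fit.

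Single fragments were tested for HRS against Loop over the whole genome. Of the 1232 members 397 passed the filter on low counts, and 835 did not, among them the 522 with no count. Higher in HRS were 5 (1.26%), where 8.02% of 1744841 fragments were, and lower were 87 (21.9%), where 14.8% were. Of the 87 lower fragments 82 were at most 200 bp long, and their median length was 96 bp, against 514 bp for tested fragments that were not called and 1475 bp for the 5 higher ones. With length corrected 0 were higher and 5 lower, where 4.28% and 1.36% were. In the left flank 430 of 781 tested fragments were higher and in the right flank 328 of 844. Without HRS replicate 1 the lower fragments numbered 61 of 468 tested.

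The 5 members with the most counts show the same dependence on length. The fragment from 22221524 to 22222007, of 483 bp, had 101, 96 and 113 counts in HRS, against 79, 70 and 62 in Loop and 81, 108 and 87 in Input. Its HRS counts were above its Loop counts in every library, but the log2 ratio of 0.76 ± 0.32 did not pass (SE, edgeR adjusted p = 0.0732). The fragment from 22795919 to 22796016, of 97 bp, had 38, 48 and 40 counts in HRS, against 117, 144 and 162 in Loop and 64, 46 and 60 in Input, a log2 ratio of -1.58 ± 0.33 (SE, edgeR adjusted p = 0.000168). The short fragments from 22877128 (97 bp) and 22490502 (88 bp) were also lower in HRS, each at a log2 ratio of -1.41, and the one from 22601601 (197 bp) did not pass. None of the 5 passed once length was corrected, with adjusted p from 0.25 to 0.531 by edgeR.

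Among the fragments called lower, the largest change was at 22373009 to 22373058, a fragment of 49 bp with 10, 6 and 4 counts in HRS, against 55, 62 and 55 in Loop and 23, 10 and 13 in Input. Its log2 HRS to Loop ratio was -2.94 ± 0.45 (SE, edgeR adjusted p = 1.62e-06), and it passed also with length corrected (-1.46, edgeR adjusted p = 0.0229). The fragment from 22575974 to 22576200 differed from the others in being longer, at 226 bp, and in its Input counts. It had 5, 7 and 0 counts in HRS, against 21, 31 and 16 in Loop and 24, 19 and 20 in Input, so that HRS alone was low, and its log2 ratio hardly moved with the correction (-2.35 without it and -2.28 with it, edgeR adjusted p = 0.0295 in the second case). The remaining 3 of the 5 largest falls were fragments of 40, 75 and 41 bp at 23152735, 22454426 and 22721772, with log2 ratios of -2.49, -2.29 and -2.29, which did not pass with length corrected.

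The 5 fragments called higher in HRS were between 530 and 2966 bp long, with 92 to 347 counts summed over the 9 libraries. The median counted fragment of the block had 109.5 such counts. The fragment from 22825491 to 22828457 (2966 bp) had 16, 10 and 20 counts in HRS, against 8, 6 and 1 in Loop and 4, 16 and 11 in Input, a log2 ratio of HRS over Loop of 1.83 ± 0.64 (SE, edgeR adjusted p = 0.0289). HRS and Input overlapped there. The call at 23093770 (1475 bp) rested on HRS replicate 3, with 12, 6 and 53 counts in HRS and 19, 9 and 4 in Loop, and the log2 ratio became -0.24 once that library was left out. The others, at 22267277, 22633322 and 23099777, had log2 ratios of 1.26, 1.24 and 1.06. Each of the 5 calls was lost with length corrected and again when at least 1 library was left out.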

How the data were processed

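Per the labels' protocols, a biotinylated adaptor with an MmeI site was joined to StyI ends, and MmeI then cut short tags that were sequenced. CASAVA 1.8.2 and build mm9 are named, per the submitters' processing notes, and the aligner is not stated. The authors deposited raw counts, in whole numbers, per StyI fragment, with chromosome, start and end, whose counting base is not stated. The repeat tables were not used, nor was the terminal interval of any of 21 chromosomes.

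Fragments were assigned to the block, to its flanks and to bins of 10 kb or windows of 100 kb or 1 Mb by midpoint. The 1 Mb windows start 200 kb past each Mb. CPM is the count over the library's total. Groups were compared with edgeR 4.0.16 in R 4.3.3 (glmQLFit, glmQLFTest) on counts of the whole genome, with TMM, filterByExpr (minimum 10) and Benjamini-Hochberg adjustment over all features tested, called at 0.05. Only the 2 groups compared entered a fit. The SE is the log2 ratio over the square root of F. For the length correction, fragments were put in 20 length classes, and each fragment's pooled count over the 9 libraries, shared out as its class's counts were, entered as an offset. On simulated counts an offset set to the simulated length effect itself removed the calls that effect made. The estimation of the offset from pooled counts was not tested in that simulation. Replicates held different counts and none was a copy.

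Replicate numbers of HRS and Loop come from the titles, while those of Input were assigned here. In their deviations from the group mean, HRS and Loop libraries of equal number correlated at 0.161, 0.107 and 0.232 over 241269 bins. HRS replicate 2 correlated more with Loop replicate 1 (0.124) than with Loop replicate 2, so the values do not settle the pairing of replicates 1 and 2. Settings with pairing took the numbers as pairs. The main fits hold no pairing term.

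Named bins were the first, the last, the 5 highest and the 5 lowest tested. Named fragments were the 5 with the most counts and the 5 called with the largest change in each direction. Members and rules were chosen with earlier results of these data known. Counts carry counting error and no molecular identifiers were used. Sequences and gene order are from RefSeq, GRCm38.p6.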

Additional observations from a re-analysis of the deposited data

How the results depend on the processing

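The block stayed lower in HRS than in Loop at 1 Mb, and both flanks higher, under every alternative run: other scaling factors, library totals, all 9 libraries in 1 fit, an adjusted p of 0.01, DESeq2 1.42.0, both replicate 3 libraries left out (chosen after seeing the data), length correction, and each library left out. Without 1 library the block's log2 ratio ranged from -0.29 to -0.23 (HRS over Loop), from -0.13 to -0.07 (HRS over Input) and from 0.11 to 0.15 (Loop over Input). The block's Loop to Input value passed in DESeq2 (0.13). The right flank's Loop to Input value turned from -0.06 to 0.019 with length corrected, neither being called. The block to flank difference of HRS and Loop ranged from -1.72 to -1.58 without 1 library, and from -2.20 (flanks of 500 kb) to -1.50 (right flank only) otherwise.

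With same-numbered libraries as a replicate block, 26 of 88 bins were lower (29.5%), 2 higher (2.27%), and the 1 Mb ratio was -0.27. Over the genome 22.8% of bins were lower and 20.4% higher in that fit. With length corrected as well 7 were lower (7.95%) and 0% higher, where 10.9% and 16.55% of all bins were. Pairing, run for HRS and Loop only, changed no call of the block or either flank at 1 Mb, while over the genome it gave 667 windows higher and 784 lower, against 458 and 563 without it.

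As percent of tested block bins, HRS over Loop gave 6.82% lower and 0% higher with length corrected, against 8.43% and 14.9% over the genome. The share higher was 3.37% with all 9 libraries in 1 fit and 4.35% in 20 kb bins, against 23.0% and 21.1% over the genome. Without 1 library it was 1.12 to 3.37%, with 23.6 to 29.2% lower. Over the genome 14.3 to 17.3% were higher and 15.8 to 22.0% lower in those fits. HRS over Input gave lower shares of 1.12% at an adjusted p of 0.01 and with all libraries in 1 fit. They were 7.87% on library totals, 1.23% in DESeq2 and 0% in 20 kb bins, where 0% were higher. In the same order the genome had 3.27%, 7.29%, 17.5%, 6.47% and 12.8% lower, with 18.2% of 20 kb bins higher. Without 1 library 1.12 to 4.49% were lower and 1.12 to 3.37% higher, against 3.99 to 10.3% and 9.68 to 16.9% over the genome. Loop over Input gave lower shares of 3.37% at an adjusted p of 0.01 and 0% with length corrected. They were 18.0% on library totals and 6.52% in 20 kb bins. In the same order the genome had 8.10%, 0.0782%, 27.7% and 18.6% lower. With length corrected 1.12% were higher, where 0.267% of all bins were. Without 1 library 5.62 to 10.1% were lower and 24.7 to 27.0% higher, against 10.6 to 18.0% and 15.9 to 21.6% over the genome.

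Of single fragments 1.26% were lower and 0% higher with length corrected, where 1.36% and 4.28% of all fragments were. The share higher was 0.252% at an adjusted p of 0.01 and 2.02% on library totals, against 3.94% and 11.9% over the genome. Library totals move the median of all fragments from 0.04 to 0.24. At a minimum count of 50 only 43 were tested, 39.5% lower and 4.65% higher, where 26.0% and 27.9% of 283587 fragments were. Without 1 library 13.03 to 19.5% were lower and 0 to 0.897% higher. Over the genome 9.92 to 13.1% were lower and 4.50 to 5.57% higher in those fits.

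Of named items, the bin from 22280001 turned to -0.035 with length corrected (-0.051 with the replicate block as well), the fragment at 22601601 to 0.17 at a minimum count of 50, and the fragment at 23093770 to -0.24 without HRS replicate 3 (highest 2.06, without Loop replicate 1). Where the construction of a setting does not show it, the cause was not tested. Of the members 835 had too few counts to be tested singly, among them 522 with no count, a cause that was not tested.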
